A study of Mus musculus with 32 samples.

Results

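The mouse genes of the translation initiation factors were followed through the first wave of spermatogenesis. They were taken by name, as every protein-coding gene of GENCODE mouse release M21 whose symbol is Eif followed by a digit. The annotation held 55 such genes, and 54 of them were among the 20368 genes of the juvenile gene table, which lists genes with at least 3 TPM (the share of the RNA pool that a transcript takes, corrected for its length) in at least 1 mouse. The remaining gene, Eif4e1b, was present in the transcript table, where its mean level was between 0.404 TPM at 10 dpp and 1.89 TPM at 16 dpp. RNA-seq of poly-A RNA had been carried out on germ cells, released with Liberase from washed seminiferous tubules of C57BL/6J males between 8 and 18 days post partum (dpp), at steps of 2 days. Each juvenile sample came from a single mouse, with 3 mice at 8 dpp and 5 mice at each later age. The paper had collected 5 mice at 8 dpp as well and left out 2 that matched the others of that age poorly. The spread at 8 dpp is therefore that of the mice kept after this choice. A further 4 samples were adult pachytene and diplotene spermatocytes enriched by sedimentation, each pooled from 6 C57BL/6J males of 9 weeks. The labels name no mutation or treatment for any sample.

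Translation of most mRNAs begins when the eIF4F complex, made of the cap-binding protein eIF4E, the scaffold eIF4G and the RNA helicase eIF4A, settles on the cap and brings in the small ribosomal subunit. That subunit already carries eIF3, eIF1, eIF1A, eIF5 and the ternary complex of eIF2, GTP and the initiator tRNA, and it scans for a start codon, after which eIF2B exchanges the GDP on eIF2 for GTP. Spermatocytes make many mRNAs well before their proteins are needed, and the X and Y chromosomes are silenced in the pachytene stage. Some X-linked factors have a relative on an autosome or the Y chromosome, and other factors have paralogs that are both autosomal.

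The samples were mixtures of cells whose makeup moved with age, as the marker genes showed. Summed over the list, 6 pachytene and later markers were at 14.7 to 19.8 TPM at 8 dpp, 2036 to 3919 TPM at 18 dpp and 8432 to 8749 TPM in adult cells. The 8 Sertoli cell markers were at 6941 to 7825 TPM at 8 dpp, 3271 to 4255 TPM at 18 dpp and 296 to 435 TPM in adult cells, with all 8 above 1 TPM on average in every group. The 6 spermatogonium markers were at 1013 to 1138, 454 to 655 and 29.3 to 35.4 TPM in the same groups, and the 6 spermatid markers were at 872 to 1189 TPM in adult cells and at most 17.0 TPM at 18 dpp. At 18 dpp the mice fell apart by number: mice 1 to 3 had 3751 to 3919 TPM of the pachytene markers and mice 4 and 5 had 2036 to 2134 TPM, while the Sertoli markers were at 3271 to 3409 and 4198 to 4255 TPM. Markers of peritubular cells (524 to 586 against 1006 to 1034 TPM), Leydig cells (169 to 186 against 325 to 472 TPM), macrophages (39.7 to 43.7 against 65.8 to 78.6 TPM), endothelial cells (31.8 to 37.9 against 55.0 to 65.2 TPM) and spermatogonia (454 to 481 against 616 to 655 TPM) were also higher in mice 4 and 5. From 8 to 18 dpp 4 of 5 macrophage markers and 3 of 6 Leydig markers were called higher by limma, and none of either list lower. Pairs of mice of the same age had correlations of log2 levels across genes between 0.947 and 0.984 in all 53 pairs. The labels name no pool, but index sequences of 8 to 12 dpp recurred at 14 to 18 dpp, which 1 shared pool would not allow. From the younger to the older of these ages, age and pool cannot be told apart. The step between them, from 12 to 14 dpp, had 35 of 20368 genes called by limma, and whether steps within 8 to 12 or 14 to 18 dpp crossed pools is not given in the sources used here. In such bulk samples fewer cells of a type and less RNA per cell cannot be told apart, and the part of the changing makeup in the differences below was not tested.

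The genes of the family were abundant at all ages. Their levels summed to 9146 ± 220 TPM (SD, n = 3) at 8 dpp, 8604 ± 77.1 TPM (n = 5) at 18 dpp and 8258 ± 125 TPM (n = 4) in adult cells, which was 0.915%, 0.860% and 0.826% of all TPM. The median gene of the 55 was at 92.2 TPM at 8 dpp and 93.2 TPM at 18 dpp, and 26 and 25 of them were at 100 TPM or more. Within this sum the order of the genes changed. Eif4a1, the main eIF4A helicase gene, was the highest from 8 to 16 dpp (1283 TPM at 8 dpp), and Eif5a, whose hypusine-bearing product helps ribosomes through difficult peptide bonds, was the highest at 18 dpp (895 TPM) and in adult cells (917 TPM).

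Differences between ages were tested on log2(TPM + 1) with limma, with Benjamini-Hochberg adjustment over the 20368 genes and a threshold of 0.05. Some difference among the 6 ages was called for 50 of the 54 genes (92.6%), where the share over all genes was 77.6%. From 8 to 18 dpp 17 genes rose, 28 fell and 9 were not called, while 31.8% of all genes rose and 36.3% fell. The median log2 fold change was -0.16 over the family and -0.09 over all genes. After median-of-ratios scaling, which moved the median of all genes to 0.05, the family's split was 20 higher and 20 lower, or 50.0% of its calls higher in place of 37.8% (all genes 56.0% in place of 46.7%), and the family's median lay 0.04 below that of all genes in place of 0.06.

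**Figure D1:**
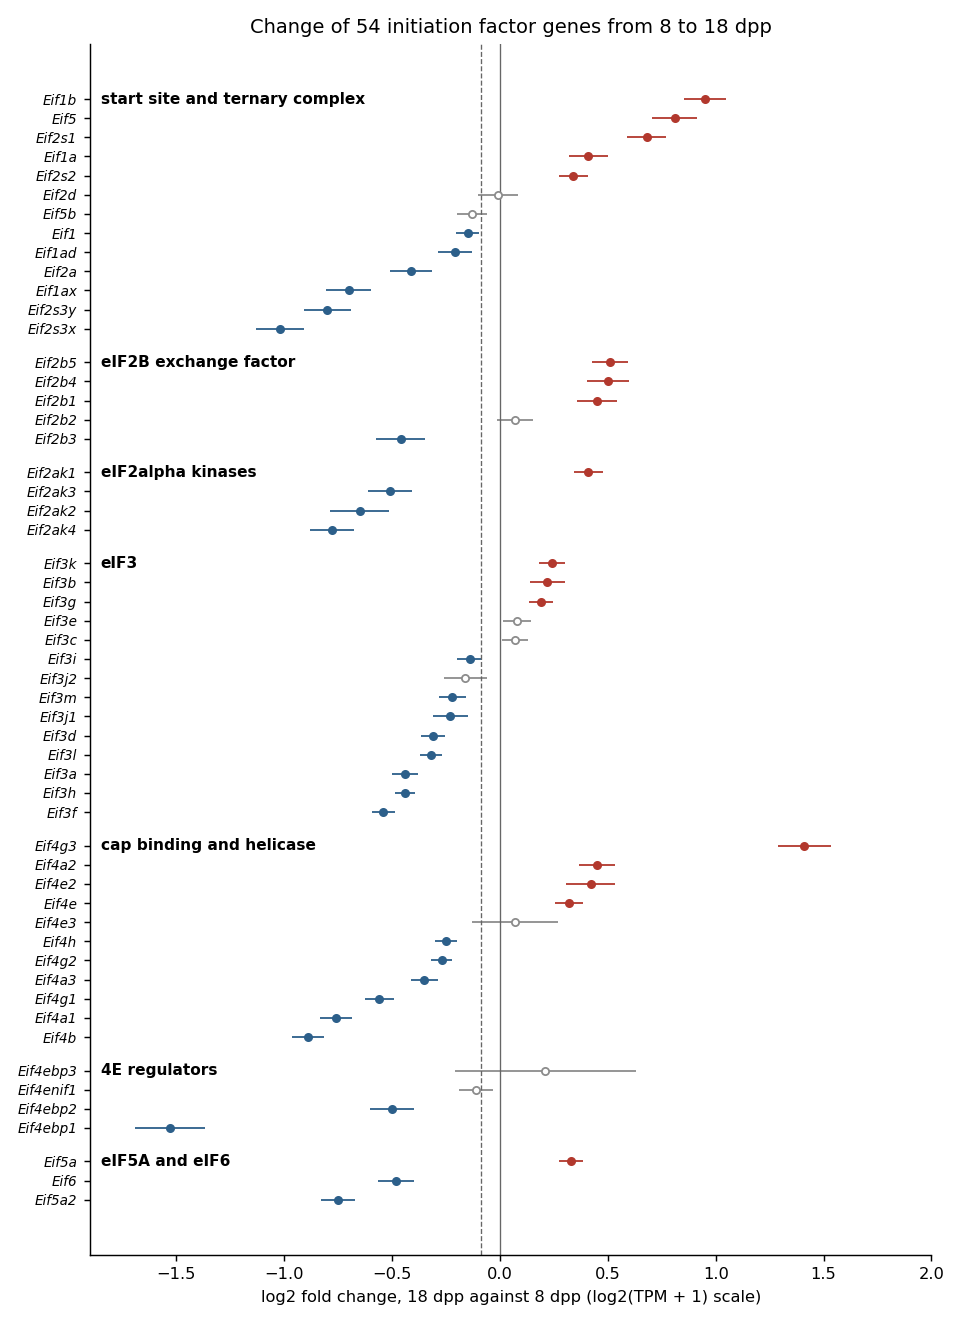
Log2 fold change from 8 to 18 dpp on the log2(TPM + 1) scale for the 54 genes, grouped by role, with bars of 1 SE from the limma fit. Filled red points rose, filled blue points fell, open points were not called, and the dashed line is the median of all genes at -0.09; Eif4g3 at 1.41 and Eif4ebp1 at -1.53 lie farthest to either side.

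The groups of factors differed in how their members were divided. Of the 13 genes of start site selection and the ternary complex, 5 rose and 6 fell, with a median log2 fold change of -0.13. Of the 5 subunits of eIF2B, 3 rose and 1 fell (median 0.45), and of the 4 eIF2alpha kinases 1 rose and 3 fell (median -0.58). Of the 14 eIF3 subunits 3 rose and 8 fell (median -0.19), and of the 11 tested genes of cap binding and unwinding 4 rose and 6 fell (median -0.25). The 4 regulators of eIF4E held 2 falls and no rise (median -0.31), and the remaining group held a rise of Eif5a and falls of Eif5a2 and Eif6. No test was made between the groups, whose members were chosen by function.

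Most calls between neighbouring ages were at the last interval. Between 8 and 10 dpp no gene of the family was called by limma, with 5 at an unadjusted p under 0.05, and over all genes 0.977% rose and 0.226% fell. Between 10 and 12 dpp 2 rose and 9 fell, beside 12.0% and 9.39% of all genes, and the 2 that rose were Eif4a2 and the kinase gene Eif2ak1. None was called between 12 and 14 dpp, with 4 at an unadjusted p under 0.05, where 0.157% of all genes rose and 0.0147% fell. Between 14 and 16 dpp 5 rose and 9 fell (12.7% and 11.3% of all genes), and between 16 and 18 dpp 16 rose and 14 fell (23.4% and 30.6% of all genes). After median-of-ratios scaling the split was 6 higher and 6 lower between 14 and 16 dpp and 25 higher and 10 lower between 16 and 18 dpp. The 5 that rose between 14 and 16 dpp, Eif4g3, Eif1b, Eif4a2, Eif2s2 and Eif5a, had log2 fold changes of 0.31, 0.29, 0.21, 0.17 and 0.17. That count rested on single mice, since it was 0 without mouse 1 of 16 dpp, 1 without mouse 2 of 14 dpp, 2 without mouse 2 of 16 dpp and 3 without mouse 5 of 16 dpp or any other mouse of 14 dpp.

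Adult spermatocytes were set beside the juvenile mice without a test, since their table was computed apart and the cells were isolated in another way. All 4 adult samples were above all 5 mice of 18 dpp for 14 of the 54 genes and below them for 29, with 11 overlapping, where 22.3% of all genes were above and 53.3% below. Among the members above were 6 of 14 eIF3 subunits, 4 of 13 genes of the start site group, 2 of 5 eIF2B subunits and 2 of 11 genes of cap binding and unwinding. Those below were 8 of 11 genes of cap binding and unwinding, 7 of 13 genes of the start site group, 5 of 14 eIF3 subunits, 3 of 4 kinases, 3 of 4 regulators of eIF4E, 2 of 3 genes of eIF5A and eIF6 and 1 of 5 eIF2B subunits. Summed by group, cap binding and unwinding was at 3346 ± 125 TPM at 8 dpp, 2692 ± 102 TPM at 18 dpp and 1835 ± 25.4 TPM in adult cells, while the start site group was at 1528 ± 33.6, 1735 ± 45.4 and 2055 ± 41.4 TPM.

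The scaffold eIF4G, which ties eIF4E, eIF4A and the poly-A binding protein together, showed the largest rise of the family. Eif4g3 (ENSMUSG00000028760, chr4:137993022-138208508, + strand) encodes the paralog known from a mouse mutant with meiotic arrest, and Eif4g1 (ENSMUSG00000045983, chr16:20668313-20692884, + strand) the main scaffold of most tissues. Eif4g3 was at 56.3, 54.8 and 56.6 TPM in the mice of 8 dpp, at 199, 176, 167, 117 and 112 TPM in mice 1 to 5 of 18 dpp, and at 280, 277, 269 and 304 TPM in the adult samples. The 3 groups did not overlap, and mice 1 to 3 of 18 dpp were the highest of the juvenile mice. The means of the ages between were 59.9, 63.8, 73.0 and 90.5 TPM, and the log2 fold change from 8 to 18 dpp was 1.41 (SE 0.123, limma adjusted p = 9.61e-11), with 0.73 of it between 16 and 18 dpp. From 10 to 18 dpp it was 1.59 in mice 1 to 3 and 0.91 in mice 4 and 5.

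Eif4g1 moved the other way. Its levels of 228, 221 and 218 TPM at 8 dpp compared with 143, 142, 140, 165 and 166 TPM at 18 dpp (log2 fold change -0.56, SE 0.0675, limma adjusted p = 4.15e-08) and with 30.2, 28.4, 35.8 and 31.4 TPM in adult cells. The sum of both genes was 278 TPM at 8 dpp, 305 TPM at 18 dpp and 314 TPM in adult cells, so the share of Eif4g3 in it was 20.1% ± 0.454 (SD, n = 3), 50.0% ± 8.34 (n = 5) and 90.0% ± 1.14 (n = 4). At 18 dpp that share ran from 40.3% to 58.2%. Eif4g2, a relative that lacks the eIF4E binding site, fell by 0.27 on the log2 scale (SE 0.0476, limma adjusted p = 1.50e-05), from 699 to 579 TPM.

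**Figure D2:**
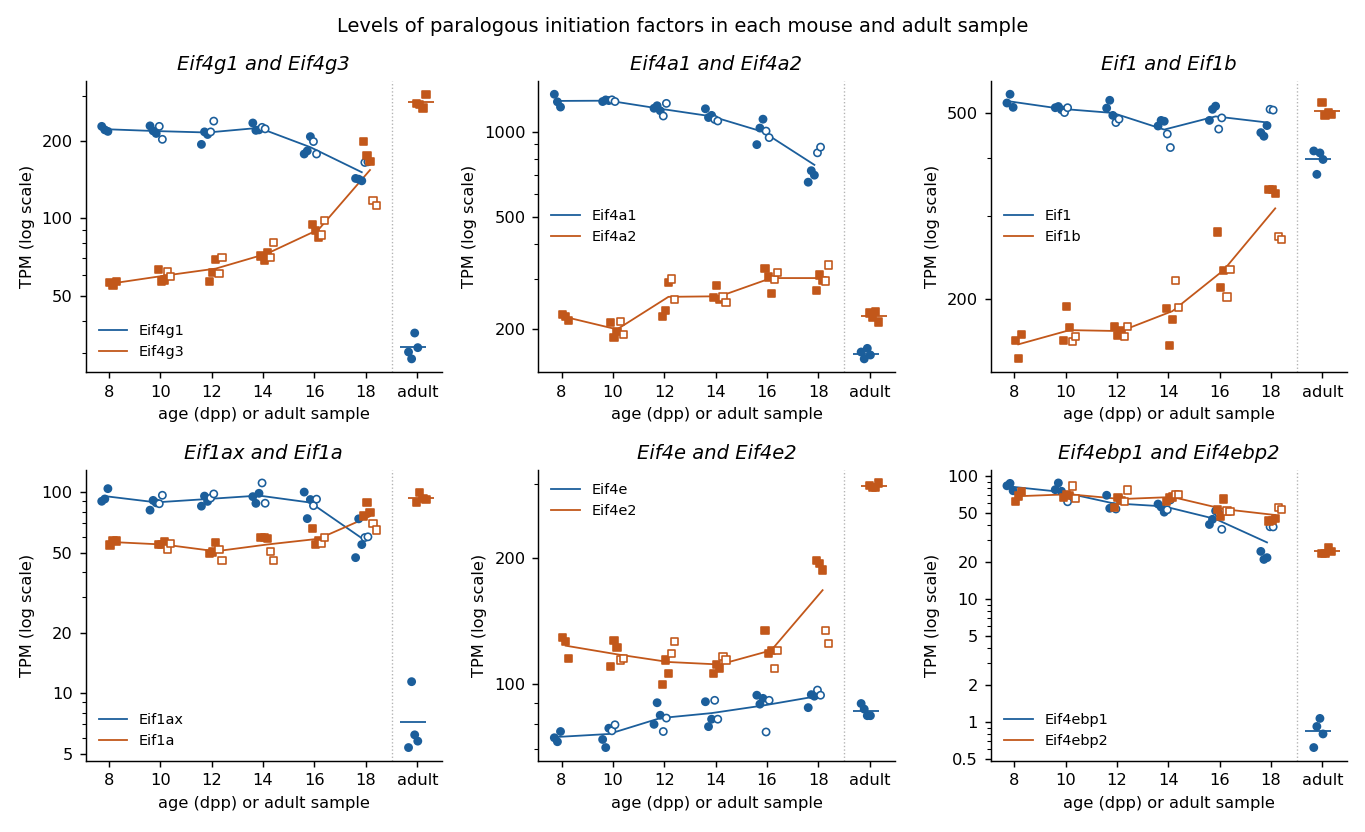
Levels in TPM on a log axis of both genes of 6 paralog pairs, by age in dpp and in the adult samples to the right of the dotted line. Each point is a mouse or adult sample, open points are mice 4 and 5 of an age, lines join the means of the ages and short bars are the adult means. Eif4g3, Eif4a2, Eif1b, Eif1a and Eif4ebp2 lie below their paralogs at 8 dpp and above them in adult cells, while Eif4e2 lies above Eif4e throughout.

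The helicase eIF4A unwinds the leader of the mRNA, and its paralogs also crossed. Eif4a1 (ENSMUSG00000059796, chr11:69666936-69672423, - strand) was at 1355, 1274 and 1221 TPM at 8 dpp, at 662, 727, 701, 841 and 881 TPM at 18 dpp and at 166, 157, 171 and 162 TPM in adult cells. No mouse of 18 dpp reached the lowest of 8 dpp (log2 fold change -0.76, SE 0.0729, limma adjusted p = 6.41e-10). Eif4a2 (ENSMUSG00000022884, chr16:23107444-23114136, + strand) was at 226, 222 and 214 TPM at 8 dpp, at 274, 311, 298, 296 and 337 TPM at 18 dpp and at 228, 220, 231 and 212 TPM in adult cells. It rose by 0.45 on the log2 scale to 18 dpp (SE 0.0844, limma adjusted p = 3.41e-05), with 0.37 of it called between 10 and 12 dpp, and the adult samples were back at the levels of 8 dpp. The sum of both dropped from 1504 TPM at 8 dpp to 1066 TPM at 18 dpp and 387 TPM in adult cells, and the share of Eif4a2 was 14.7% ± 0.327, 28.5% ± 1.68 and 57.6% ± 0.726. At 18 dpp mice 1 to 3 and mice 4 and 5 differed for Eif4a1 (662 to 727 against 841 to 881 TPM) and overlapped for Eif4a2. A processed pseudogene, Eif4a-ps4, is 99.9% identical to Eif4a1 over its whole coding sequence. It was listed at up to 33.72 TPM in a mouse, so some reads of either could have been given to the other. The coding ends of the paralogs are alike but not the same, which bears on how reads are shared between them. In GENCODE M21 transcripts on GRCm38 the last 90 coding bases, stop codon included, read as follows, with the 16 bases that differ in capitals, at chr11:69667473-69667562 (- strand) for Eif4a1-213 and chr16:23113222-23113311 (+ strand) for Eif4a2-203.
Eif4a1 coding end: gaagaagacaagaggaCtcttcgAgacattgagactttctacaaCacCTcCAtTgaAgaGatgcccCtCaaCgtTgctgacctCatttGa
Eif4a2 coding end: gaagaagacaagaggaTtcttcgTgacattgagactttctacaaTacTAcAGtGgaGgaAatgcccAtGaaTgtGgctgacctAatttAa

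Eif4a3, which clamps the exon junction complex to spliced mRNA, fell by 0.35 on the log2 scale (SE 0.0624, limma adjusted p = 1.66e-05). Eif4b and Eif4h encode cofactors that speed the helicase. Eif4b was at 242, 224 and 217 TPM at 8 dpp, at 110, 114, 114, 127 and 152 TPM at 18 dpp and at 46.7, 40.5, 48.6 and 44.7 TPM in adult cells, without overlap between the groups. Its log2 fold change to 18 dpp was -0.89 (SE 0.0731, limma adjusted p = 3.31e-11), and the interval from 10 to 12 dpp, at -0.28, and that from 16 to 18 dpp, at -0.34, were called. Eif4h had a smaller fall, from 219 ± 9.56 to 185 ± 12.0 TPM.

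Both main cap-binding genes rose to 18 dpp. Eif4e, the canonical cap-binding gene, was at 74.3, 72.7 and 76.9 TPM at 8 dpp, 87.7, 94.2, 93.4, 96.6 and 93.9 TPM at 18 dpp and 89.7, 87.0, 83.9 and 83.9 TPM in adult cells, and rose by 0.32 on the log2 scale (SE 0.0654, limma adjusted p = 1.20e-04). Eif4e2, whose product binds the cap without eIF4G and is known as a repressor, was at 129, 126 and 115 TPM at 8 dpp and at 197, 194, 187, 134 and 125 TPM at 18 dpp. Mice 4 and 5 of 18 dpp were within or close to the range of 8 dpp and mice 1 to 3 above it, and the log2 fold change of 0.42 (SE 0.112, limma adjusted p = 0.00185) came from 16 to 18 dpp, where it was 0.45. From 10 to 18 dpp it was 0.69 in mice 1 to 3 and 0.18 in mice 4 and 5. Adult samples were at 298, 295, 295 and 302 TPM of Eif4e2, so its share of the sum with Eif4e was 62.2% ± 2.01 at 8 dpp, 63.7% ± 5.66 at 18 dpp and 77.6% ± 0.624 in adult cells. Eif4e3, a cap-binding relative of low level, was at 3.14 ± 0.350 TPM at 8 dpp, 6.17 ± 1.17 TPM at 14 dpp and 3.43 ± 1.15 TPM at 18 dpp, and its log2 fold change of 0.07 (SE 0.199, limma adjusted p = 0.785) turned to -0.18 with mice 1 to 3 alone and to -0.09 with a replicate block. It was listed at 0 in 1 adult sample and at 0.310, 0.400 and 0.670 TPM in the others. Eif4e1b, a relative known from oocytes, was at 1.28 ± 0.421 TPM at 8 dpp, 1.42 ± 0.617 TPM at 18 dpp and 0.278 ± 0.302 TPM in adult cells, and was not tested.

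Of the proteins that keep eIF4E from eIF4G, Eif4ebp1 (ENSMUSG00000031490, chr8:27260329-27276674, + strand) had the largest fall of the family. It was at 83.4, 87.2 and 76.0 TPM at 8 dpp, at 24.4 and 21.7 TPM in mice 1 and 3 of 18 dpp and at 38.7 and 38.6 TPM in mice 4 and 5, with mouse 2 just below mouse 3, and at 0.620, 0.920, 1.07 and 0.800 TPM in adult cells. The groups did not overlap, and mice 4 and 5 of 18 dpp were above mice 1 to 3. The log2 fold change was -1.53 (SE 0.162, limma adjusted p = 3.91e-09), and from 10 to 18 dpp it was -1.80 in mice 1 to 3 and -0.74 in mice 4 and 5. Eif4ebp2 fell less, from 68.6 ± 6.16 to 48.2 ± 5.78 TPM (log2 fold change -0.50, SE 0.104, limma adjusted p = 1.17e-04), and was at 24.4 ± 1.34 TPM in adult cells. Its share of the sum of both was 45.5% ± 3.57 at 8 dpp, 63.2% ± 4.58 at 18 dpp and 96.6% ± 0.615 in adult cells. Eif4ebp3 was at 1.25 ± 0.783 TPM at 18 dpp and at a mean of at most 2.07 TPM at any age. From 8 to 18 dpp it was not called (log2 fold change 0.21, SE 0.419, limma adjusted p = 0.679). It was called lower from 14 to 16 dpp (-1.36, limma adjusted p = 0.00691) and higher from 16 to 18 dpp (0.85, limma adjusted p = 0.0496). Only mouse 3 of 14 dpp, at 3.22 TPM, took it past the filter of 3 TPM. The fall was thus measured from the group that admitted the gene. At 16 dpp mouse 2 was at 1.15 TPM and the others were listed at 0. These calls therefore cannot tell a change from scatter near 0. With 3 TPM required in at least 3 mice, 8 genes were lower from 14 to 16 dpp (reported 9). From 16 to 18 dpp 15 were higher (reported 16). Eif4enif1, whose product carries eIF4E to the nucleus and to RNA granules, was at 92.2 ± 5.41 TPM at 8 dpp and 85.2 ± 4.04 TPM at 18 dpp and was not called in any comparison of ages.

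The ternary complex showed a split between its subunits. The alpha subunit, whose phosphorylation shuts down initiation, is encoded by Eif2s1 (ENSMUSG00000021116, chr12:78861819-78887010, + strand). Its levels were 53.5, 47.8 and 56.7 TPM at 8 dpp, 93.3, 92.9, 90.7, 76.4 and 73.1 TPM at 18 dpp and 142, 136, 131 and 131 TPM in adult cells (log2 fold change to 18 dpp 0.68, SE 0.0917, limma adjusted p = 2.61e-07). Eif2s2, for the beta subunit, was at 112 ± 7.53 TPM at 8 dpp, 141 ± 6.77 TPM at 18 dpp and 174 ± 4.97 TPM in adult cells (log2 fold change 0.34, SE 0.0663, limma adjusted p = 6.21e-05). Each of these 2 subunits thus stood higher in each later group of the 3.

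The gamma subunit, which binds GTP and the initiator tRNA, is encoded by Eif2s3x on the X and Eif2s3y on the Y chromosome. Eif2s3x (ENSMUSG00000035150, chrX:94188707-94212862, - strand) was at 64.6, 60.9 and 59.6 TPM at 8 dpp, at 28.4, 24.8, 23.8, 36.4 and 39.8 TPM at 18 dpp and at 1.42, 1.31, 1.59 and 2.16 TPM in adult cells. Its log2 fold change to 18 dpp was -1.02 (SE 0.110, limma adjusted p = 5.59e-09). Eif2s3y (ENSMUSG00000069049, chrY:1010543-1028847, + strand), needed for the proliferation of spermatogonia, was at 82.6, 78.6 and 82.0 TPM at 8 dpp, at 37.7, 46.6, 37.7, 50.5 and 61.4 TPM at 18 dpp and at 7.84, 5.94, 9.91 and 6.58 TPM in adult cells. It fell by 0.80 on the log2 scale (SE 0.109, limma adjusted p = 2.90e-07), and neither gene overlapped between the 3 groups. Together they gave 143 ± 4.00 TPM at 8 dpp, 77.4 ± 16.4 TPM at 18 dpp and 9.19 ± 1.76 TPM in adult cells, and at 18 dpp the sum lay between 61.5 and 101 TPM. Eif2s3y made up 56.8% ± 0.978 of it at 8 dpp, 60.5% ± 3.19 at 18 dpp and 82.0% ± 4.82 in adult cells. At 8 dpp the gamma subunit was thus the highest of the 3 subunits in TPM, and in adult cells it was the lowest. The last 90 coding bases of the pair, shown because reads are told apart by such differences, differ at 9 bases, in capitals, in spliced transcripts that span chrX:94190859-94196297 (- strand) and chrY:1023449-1028251 (+ strand) on GRCm38.
Eif2s3x coding end: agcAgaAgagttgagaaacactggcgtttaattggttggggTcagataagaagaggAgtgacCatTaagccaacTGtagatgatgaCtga
Eif2s3y coding end: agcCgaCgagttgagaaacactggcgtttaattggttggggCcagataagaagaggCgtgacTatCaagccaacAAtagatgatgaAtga

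**Figure D3:**
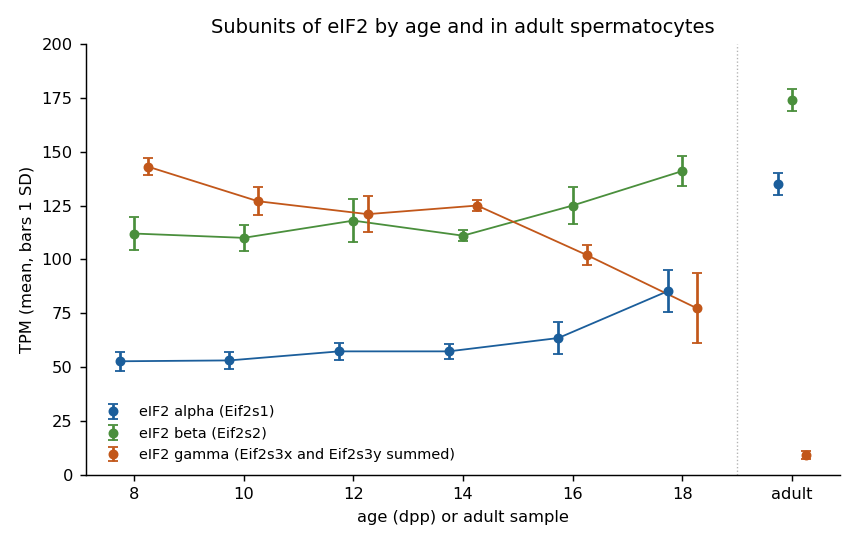
Levels in TPM of the 3 subunits of eIF2 by age in dpp and in the adult samples to the right of the dotted line, with the X-linked and the Y-linked gene of the gamma subunit summed. Points are means with bars of 1 SD over 3 mice at 8 dpp, 5 mice at each later age and 4 adult samples; alpha and beta stand at 135 and 174 TPM in adult cells and gamma at 9.19 TPM.

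The gamma genes were set beside the other genes of their chromosomes. Of 566 X-linked protein-coding genes tested, 378 (66.8%) fell from 8 to 18 dpp with a median log2 fold change of -0.59, against 40.3% of 13065 autosomal genes with a median of -0.08. Of 17 Y-linked genes tested, 9 (52.9%) fell and 4 rose, with a median of -0.45. Among genes with 3 TPM or more at 18 dpp, the median ratio of the adult to the 18 dpp mean was 0.0616 over 500 X-linked, 0.0462 over 13 Y-linked and 0.579 over 11689 autosomal genes. For Eif2s3x that ratio was 0.0529 and for Eif2s3y 0.162. A processed pseudogene on the X chromosome, Gm2223, is identical to Eif2s3x over 95.1% of its coding sequence and was listed at a mean of 1.97 to 6.93 TPM by age, so some reads of either could have been given to the other.

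The genes of eIF1A, which steadies the scanning ribosome, also divided by chromosome. X-linked Eif1ax (ENSMUSG00000067194, chrX:159372178-159389928, + strand) was at 90.0, 92.4 and 104 TPM at 8 dpp, at 47.2, 73.6, 54.8, 59.4 and 59.9 TPM at 18 dpp and at 5.36, 11.4, 6.20 and 5.77 TPM in adult cells. It fell by 0.70 on the log2 scale (SE 0.104, limma adjusted p = 1.25e-06), of which 0.59 came between 16 and 18 dpp. Its autosomal relative Eif1a rose from 56.4 ± 1.67 TPM to 75.8 ± 9.21 TPM (log2 fold change 0.41, SE 0.0905, limma adjusted p = 2.49e-04) and was at 93.1 ± 4.67 TPM in adult cells, overlapping 18 dpp. Eif1ax made up 62.8% ± 1.56 of the sum at 8 dpp, 43.7% ± 4.02 at 18 dpp and 7.04% ± 2.16 in adult cells, while the sum went from 152 to 135 and 100 TPM.

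For eIF1, which guards the choice of the start codon, the lesser gene gained. Eif1b (ENSMUSG00000006941, chr9:120492232-120495330, + strand) was at 163, 149 and 168 TPM at 8 dpp, at 342, 343, 336, 272 and 268 TPM at 18 dpp and at 525, 492, 501 and 496 TPM in adult cells. All 5 mice of 18 dpp were above all 3 of 8 dpp and below all adult samples (log2 fold change 0.95, SE 0.0985, limma adjusted p = 2.39e-09). Eif1 was at 528 ± 17.6, 476 ± 29.2 and 398 ± 20.1 TPM, and its log2 fold change of -0.15 (SE 0.0536, limma adjusted p = 0.0146) was 0.03 after median-of-ratios scaling. The share of Eif1b in the sum was 23.2% ± 1.67, 39.6% ± 4.42 and 55.9% ± 0.905. A transcript of X-linked Emd matches the whole Eif1 coding sequence at 96.8% identity, so reads of either could have been given to the other. Emd was at a mean of 62.92 TPM at 8 dpp, 33.39 TPM at 18 dpp and 2.39 TPM in adult cells. Their last 90 coding bases differ at 21 bases, in capitals below, in spliced transcripts that span chr11:100321005-100321361 and chr9:120494592-120494957 (both + strand) on GRCm38.
Eif1 coding end: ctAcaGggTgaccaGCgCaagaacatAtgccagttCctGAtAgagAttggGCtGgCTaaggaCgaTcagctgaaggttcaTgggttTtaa
Eif1b coding end: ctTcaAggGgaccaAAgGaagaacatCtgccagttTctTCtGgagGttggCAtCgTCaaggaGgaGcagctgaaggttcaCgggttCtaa

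Eif5 (ENSMUSG00000021282, chr12:111538016-111546752, + strand), whose product makes eIF2 hydrolyse its GTP at the start codon, had the third largest rise. It was at 208, 180 and 208 TPM at 8 dpp, at 400, 371, 356, 307 and 316 TPM at 18 dpp and at 654, 625, 633 and 612 TPM in adult cells, without overlap (log2 fold change 0.81, SE 0.103, limma adjusted p = 1.04e-07). Among the other genes of this group, Eif2a, for a factor that can bring in the initiator tRNA without eIF2, fell by 0.41 on the log2 scale (SE 0.0973, limma adjusted p = 5.80e-04) and was at 9.07 ± 0.636 TPM in adult cells. Eif1ad fell by 0.21 (SE 0.0789, limma adjusted p = 0.0232). Eif5b, which joins the subunits, and Eif2d were not called, at -0.13 and -0.01, and after median-of-ratios scaling they were at 0.05 and 0.16.

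The exchange factor eIF2B was the group with the highest median, and its subunits were not alike. Eif2b5, for the catalytic epsilon subunit, was at 59.5, 56.5 and 55.3 TPM at 8 dpp, at 89.4, 84.6, 88.6, 72.9 and 74.2 TPM at 18 dpp and at 134, 123, 122 and 128 TPM in adult cells (log2 fold change to 18 dpp 0.51, SE 0.0833, limma adjusted p = 5.41e-06). Eif2b4, for delta, was at 46.9 ± 4.52 TPM, 67.0 ± 9.32 TPM and 105 ± 3.62 TPM (0.50, SE 0.0961, limma adjusted p = 5.24e-05), and Eif2b1, for the regulatory alpha subunit, at 37.4 ± 3.80, 51.3 ± 4.07 and 58.7 ± 3.97 TPM (0.45, SE 0.0919, limma adjusted p = 1.13e-04). Eif2b3, for gamma, fell from 60.6 ± 5.91 to 44.2 ± 8.77 TPM (log2 fold change -0.46, SE 0.115, limma adjusted p = 9.04e-04), although the ages overlapped, and was at 6.39 ± 1.84 TPM in adult cells. Eif2b2, for beta, was not called, at 55.1 ± 3.26 and 58.0 ± 5.22 TPM. Gamma, the partner of epsilon in the catalytic pair, was thus level with epsilon and beta at 8 dpp, where the ranges of the 3 overlapped. It had the lowest mean of the 5 at 18 dpp and in adult cells. At 18 dpp this rank rested on mice 1 to 3, with 34.9 to 41.0 TPM of Eif2b3. Mice 4 and 5 had 51.9 to 55.0 TPM of it, above their 47.9 to 50.6 TPM of Eif2b1.

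The 4 kinases that phosphorylate eIF2alpha under stress were low in level throughout. Eif2ak4 (GCN2, the sensor of uncharged tRNA) was at 20.3, 21.7 and 22.0 TPM at 8 dpp, at 11.1, 11.7, 10.6, 13.7 and 13.3 TPM at 18 dpp and at 1.95, 3.33, 2.85 and 3.88 TPM in adult cells (log2 fold change to 18 dpp -0.78, SE 0.102, limma adjusted p = 1.68e-07). Eif2ak3 (PERK, the sensor of unfolded proteins) fell from 13.0 ± 0.916 to 8.89 ± 1.28 TPM and was at 0.425 ± 0.0574 TPM in adult cells, and Eif2ak2 (PKR, the sensor of double-stranded RNA) fell from 16.0 ± 1.71 to 9.87 ± 1.20 TPM and was at 12.6 ± 2.01 TPM. Their log2 fold changes to 18 dpp were -0.51 (SE 0.101, limma adjusted p = 6.29e-05) and -0.65 (SE 0.138, limma adjusted p = 1.83e-04). Eif2ak1 (HRI, the sensor of haem) rose from 34.6 ± 1.98 to 46.4 ± 3.62 TPM (0.41, SE 0.0685, limma adjusted p = 7.18e-06) and was at 40.1 ± 0.949 TPM in adult cells, so that it was the highest of the 4 in every group.

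The subunits of eIF3, the largest factor and the bridge between the mRNA and the ribosome, moved by little in sum, while single subunits rose or fell. Their 14 levels summed to 2810 ± 87.1 TPM at 8 dpp, 2494 ± 72.7 TPM at 16 dpp, 2625 ± 60.3 TPM at 18 dpp and 2909 ± 33.7 TPM in adult cells, and log2 fold changes to 18 dpp ran from -0.54 (Eif3f) to 0.24 (Eif3k). Eif3f and Eif3h fell from 143 ± 3.86 to 98.4 ± 4.61 TPM and from 338 ± 9.86 to 249 ± 6.14 TPM (limma adjusted p = 1.31e-09 and 5.44e-09), with the called interval from 10 to 12 dpp at -0.25 and -0.23. Eif3a, the scaffold, fell from 159 ± 11.7 to 116 ± 4.25 TPM and was at 70.0 ± 5.29 TPM in adult cells. Eif3b was at 211 ± 6.38, 248 ± 39.3 and 397 ± 21.8 TPM, and its mice of 18 dpp were at 264 to 287 TPM (mice 1 to 3) and at 204 to 208 TPM (mice 4 and 5). Its log2 fold change to 18 dpp was 0.22 (SE 0.0800, limma adjusted p = 0.017), and from 10 to 18 dpp it was 0.51 in mice 1 to 3 and 0.09 in mice 4 and 5. Eif3g, Eif3k, Eif3c, Eif3e and Eif3h were with Eif3b the 6 subunits whose adult samples were all above 18 dpp. Eif3i fell by 0.14 (SE 0.0567, limma adjusted p = 0.0322), a value that became 0.04 after median-of-ratios scaling. Eif3j1 and Eif3j2 have identical coding sequences over at least 99.0% of their length, so the division of reads between them is uncertain. Together they were at 56.9 TPM at 8 dpp, 50.0 TPM at 18 dpp and 26.6 TPM in adult cells. Eif3j1 was at 17.8 ± 2.00 TPM at 8 dpp and 14.9 ± 0.472 TPM at 18 dpp, and its fall (log2 fold change -0.23, SE 0.0797, limma adjusted p = 0.0121) was lost after median-of-ratios scaling, with mice 1 to 3 alone and without mouse 1 of 8 dpp. Eif3j2 was at 39.1 ± 2.43 and 35.0 ± 5.12 TPM, and its log2 fold change of -0.16 (SE 0.0978, limma adjusted p = 0.141) was 0.01 after median-of-ratios scaling.

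Eif5a was at 707, 702 and 725 TPM at 8 dpp, at 900, 870, 903, 899 and 902 TPM at 18 dpp and at 940, 883, 952 and 892 TPM in adult cells, and rose by 0.33 on the log2 scale (SE 0.0561, limma adjusted p = 8.89e-06). Its paralog Eif5a2 was at 35.5, 28.9 and 31.9 TPM, 18.8, 18.6, 17.4, 19.0 and 19.4 TPM, and 9.02, 6.15, 8.77 and 8.04 TPM, and fell by 0.75 to 18 dpp (SE 0.0779, limma adjusted p = 2.67e-09). The paralog was 4.32% ± 0.429 of their sum at 8 dpp, 2.04% ± 0.0841 at 18 dpp and 0.862% ± 0.116 in adult cells. Dhps and Dohh, the enzymes that put the hypusine on eIF5A, fell by 0.48 (SE 0.108, limma adjusted p = 3.02e-04) and by 0.18 (SE 0.0764, limma adjusted p = 0.0357), and stood at 9.98 to 12.8 and 24.0 to 31.6 TPM in adult cells. Eif6, which holds the large ribosomal subunit apart, fell by 0.48 (SE 0.0836, limma adjusted p = 1.35e-05), from 133 ± 3.54 to 95.3 ± 8.55 TPM.

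Transcripts of a gene also changed their shares. The percentage of a gene's TPM that went to each transcript was compared between the 8 mice of 8 and 10 dpp and the 10 mice of 16 and 18 dpp, for 26367 transcripts of 7366 genes, among them 144 transcripts of 28 genes of the family. An adjusted p under 0.05 was found by limma for 27 of the 144 (18.8%), in 10 genes, beside 13.4% of all transcripts. With a change of at least 20 points as well, 2 transcripts went up (1.20% of all transcripts) and 1 went down (0.990%). RSEM divides reads between transcripts by estimate, and these shares hold only as far as that estimate does.

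The largest of these was in the helicase gene. Eif4a2-203 is a full coding transcript whose annotation ends with the stop codon. It was at 12.5% in the early and 44.6% in the late mice (a difference of 32.0 points, SE 3.61, limma adjusted p = 1.35e-05). Its share by age, from 8 to 18 dpp, was 9.91%, 14.1%, 31.9%, 27.9%, 39.1% and 50.1%, and no late mouse (34.3% at the least) was below the highest early mouse (30.2%). Eif4a2-210, annotated for nonsense-mediated decay, had 26.0% in the early and 11.9% in the late mice (-14.1 points, SE 2.13, limma adjusted p = 2.22e-04). It lacks an exon of 140 bases, a length that is no multiple of a codon, at chr16:23109120-23109259 (+ strand). Among the 9 transcripts that hold both neighbouring exons, the 4 that hold the exon made up 62.6% ± 3.61 of the TPM of these 9 at 8 dpp and, at the later ages in turn, 68.2% ± 5.55, 78.6% ± 3.32, 78.2% ± 5.07, 80.7% ± 1.51 and 86.1% ± 3.59, as a description without a test. Eif4a2-204, also annotated for nonsense-mediated decay, went from 14.0% to 8.44% (-5.56 points, SE 1.40, limma adjusted p = 0.0125). Another coding transcript, Eif4a2-202, was lower in the late mice as well (-10.8 points, SE 2.32, limma adjusted p = 0.0041). Eif4a2-203 ends at base 23113311, while Eif4a2-202 and Eif4a2-210 run on to 23113946 and 23113947. These transcripts thus also differ at their ends, and how much of the 32.0 points came from the exon was not tested. Coding and decay transcripts were not counted apart among those with the exon. The exon is printed in capitals between 20 bases of each neighbouring exon, since its presence is 1 of the differences between Eif4a2-203 and Eif4a2-210.
Eif4a2 exon: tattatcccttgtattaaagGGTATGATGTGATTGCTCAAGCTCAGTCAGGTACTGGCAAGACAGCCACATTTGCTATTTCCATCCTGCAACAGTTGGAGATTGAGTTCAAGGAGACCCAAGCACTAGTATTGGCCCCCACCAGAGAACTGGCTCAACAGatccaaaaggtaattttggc

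In Eif5a the transcripts that changed begin with different first exons. Eif5a-210, its main transcript, was at 72.6% in the early and 46.0% in the late mice (-26.6 points, SE 4.35, limma adjusted p = 4.61e-04). All transcripts with the first exon of Eif5a-210 (chr11:69921163-69921386, - strand) summed to 77.0% ± 2.61 at 8 dpp, 59.0% ± 8.63 at 16 dpp and 38.7% ± 7.19 at 18 dpp, where the mice ran from 31.8% to 47.0%. Eif5a-209 rose from 1.49% to 11.1% (limma adjusted p = 4.98e-05) and Eif5a-207 from 2.14% to 15.3% (limma adjusted p = 0.00242). Transcripts with the first exon of Eif5a-209 (chr11:69920801-69920940), which starts downstream, went from 2.19% ± 1.11 to 17.8% ± 2.38, and those with the first exon of Eif5a-207 (chr11:69920341-69920630) from 2.36% ± 0.470 to 21.2% ± 6.14. Eif5a-210, Eif5a-209 and Eif5a-207 hold the same length of coding sequence, 462 bases, so they were not told apart by the length of the protein. In Eif2b4 the transcript Eif2b4-203 rose from 5.39% to 31.7% (26.4 points, SE 6.50, limma adjusted p = 0.0108), but the mice of 18 dpp were spread from 20.4% to 66.3% and Snx17 overlaps the gene on the other strand.

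**Figure D4:**
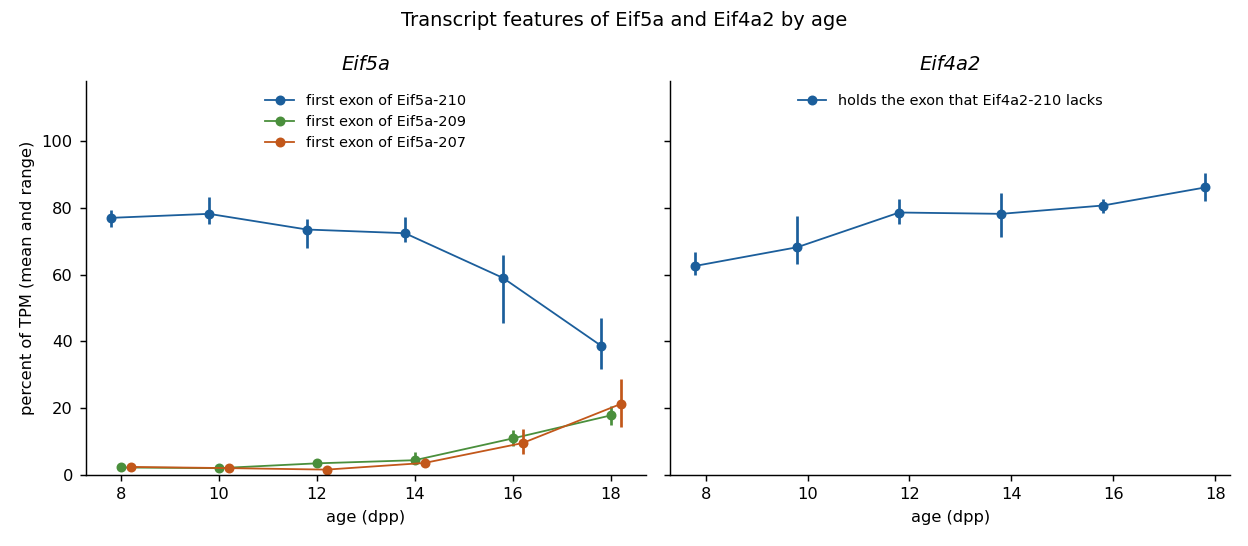
Percentage of TPM by age in dpp, for Eif5a of the 13 transcripts' sum that went to those with each of 3 first exons (left), and for Eif4a2 of the sum over the 9 transcripts with both neighbouring exons that went to those with the exon of 140 bases (right). Points are means and vertical lines run from the lowest to the highest mouse; the first exon of Eif5a-210 drops from 77.0% to 38.7% and the Eif4a2 exon climbs from 62.6% to 86.1% between 8 and 18 dpp.

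Of 51 listed genes that work with the initiation factors, 49 were tested, and 14 rose, 29 fell and 6 were not called from 8 to 18 dpp, with a median log2 fold change of -0.41, beside 31.8% and 36.3% of all genes and a median of -0.09. Among the cap and poly-A partners 6 of 15 rose and 8 fell, among the helicases and scanning factors 2 of 10 rose and 5 fell, and among the genes of stress and mTOR control 3 of 11 rose and 6 fell. Of the 9 elongation and release factors tested 1 rose and 8 fell, and both mitochondrial initiation factors rose. The largest rises were those of Pabpc2 and D1Pas1. Pabpc2, for a poly-A binding protein of the testis, was at 0.0300 ± 0.0520 TPM at 8 dpp, 233 ± 126 TPM at 18 dpp (91.6 to 350 TPM) and 889 ± 51.8 TPM in adult cells (log2 fold change to 18 dpp 7.61, SE 0.372, limma adjusted p = 1.42e-15). D1Pas1, the autosomal relative of Ddx3x, was at 9.53 ± 2.10, 116 ± 26.3 and 212 ± 3.78 TPM (log2 fold change 3.46, SE 0.187, limma adjusted p = 9.57e-15), while X-linked Ddx3x was at 227 ± 14.5, 117 ± 19.4 and 6.34 ± 0.813 TPM (-0.97, SE 0.101, limma adjusted p = 3.09e-09) and Y-linked Ddx3y at 37.0 ± 1.38, 21.4 ± 4.31 and 1.35 ± 0.442 TPM (-0.79, SE 0.125, limma adjusted p = 3.42e-06). The DDX3 helicases help eIF4F through structured leaders. Pabpc1, whose product binds eIF4G, and Mif4gd, whose product carries the middle domain of eIF4G, rose by 1.81 (SE 0.109, limma adjusted p = 6.72e-14) and by 1.82 (SE 0.115, limma adjusted p = 1.86e-13). The 3 largest falls among those called were those of Ctif, at -1.70, Pabpc4, at -1.24, and Eef2k, at -1.14. Ctif encodes a scaffold used with the nuclear cap-binding complex, Pabpc4 a further poly-A binding protein and Eef2k the kinase that slows elongation.

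The mice of 18 dpp were looked at apart for all genes of the family. Mice 1 to 3 and mice 4 and 5 did not overlap for 33 of the 54 genes (61.1%), where the share over all genes was 57.9%. Of the 45 genes called from 8 to 18 dpp, 44 (97.8%) had the same sign from 10 to 18 dpp in both sets of mice, and for 36 (80.0%) the change was also larger in mice 1 to 3. Over all 13889 genes called, these shares were 96.0% and 80.8%, so those of the family were near the background. Eif1b was at 336 to 343 against 268 to 272 TPM, Eif5 at 356 to 400 against 307 to 316 TPM and Eif2s1 at 90.7 to 93.3 against 73.1 to 76.4 TPM. Eif2s3x was at 23.8 to 28.4 against 36.4 to 39.8 TPM. Eif1ax was at 47.2 to 73.6 against 59.4 to 59.9 TPM and overlapped.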

How the data were processed

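Levels of 28 juvenile and 4 adult samples were used as deposited. According to the labels and methods, the authors aligned reads to mm10 transcripts with Bowtie 1.0.0 and estimated TPM with RSEM 1.2.8, for juvenile transcripts and adult genes in separate tables. The authors' juvenile gene table holds another scale, exp(log2(TPM + 1)) - 1. It was converted back to TPM, after which 20288 of 20368 genes were within 0.2 TPM of the sum of their transcripts. The exceptions, 80 genes, included 1 member, Eif4ebp2. The table holds genes of at least 3 TPM in at least 1 mouse. Columns assigning genes to substages are the authors' own findings and were not used. Since TPM carries no depth, read counts behind a value are unknown and it has no interval for counting error.

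The test between ages used limma 3.58.1 (R 4.3.3) on log2(TPM + 1), a scale that understates changes of low genes, with all 28 mice in 1 fit, a trend in the prior variance and Benjamini-Hochberg adjustment over all genes at 0.05. Transcript shares were compared over 8 and 10 mice in the same way. Both were tested on simulated data. Near copies were found with BLAST+ 2.17.0 in GENCODE M21 transcripts. Tables and figures were made with Python 3.11.15, pandas 2.3.3 and matplotlib 3.10.9. Alternatives were other pseudocounts and filters, median-of-ratios scaling, no trend, mice 1 to 3, a replicate block and each mouse left out.

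Genes given with full values were the 8 largest rises and 8 largest falls from 8 to 18 dpp among those called, both genes of each paralog pair and genes of called transcripts, with the 3 largest rises and falls among partners plus Ddx3x, Ddx3y, D1Pas1, Pabpc1, Pabpc2, Dhps and Dohh. Other genes were named after their values were seen. The members and all lists were chosen with earlier results of these data known. Whether reads were counted by strand is not given in the sources used here, and 16 of the 55 genes overlap a gene on the other strand, among them Eif4g3, Eif1b, Eif4a2, Eif2b4 and Eif2s2, and 3 overlap one on the same strand. Mice 4 and 5 of 14 dpp were numbered by their descriptions, since their titles carry other numbers. Groups of mice are separate animals. Adult and juvenile levels come from separate tables and were not tested against each other.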

Additional observations from a re-analysis of the deposited data

Results flagged for a closer look

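Single samples stood apart from the rest of their group in 6 of 156 groups examined, by a rule that chance meets in about 1 of 20 groups, and no explanation was tested. Eif5 was at 185 TPM in mouse 2 of 14 dpp, below the other 4 mice (217 to 229 TPM). Eif2b4 was at 54.2 TPM in mouse 2 of 10 dpp, above the others (45.2 to 46.5 TPM). Eif4e was at 76.7 TPM in mouse 4 of 16 dpp, below the others (89.4 to 93.9 TPM), and Eif5a at 870 TPM in mouse 2 of 18 dpp, below the others (899 to 903 TPM). Adult sample 2 was the highest of the adult samples for Eif2b1, at 64.6 TPM against 57.4 TPM in the next, and for X-linked Eif1ax, at 11.4 TPM against 6.20 TPM in the next.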

How the results depend on the processing

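Of the counts of called genes, those for any age and for 8 to 18 dpp stayed within 1.5 times the reported count under all alternatives. With 1 mouse left out they were 48 to 50, 16 to 17 higher and 25 to 28 lower. Under the other settings they were 45 to 50, 17 to 20 higher and 20 to 28 lower. With mice 1 to 3 alone, 4 genes were higher from 10 to 12 dpp (reported 2) and 4 were lower from 14 to 16 dpp (reported 9). The 5 genes higher from 14 to 16 dpp were 2 without a filter on low values and 0 to 6 with 1 mouse left out. Median-of-ratios scaling gave 25 genes higher from 16 to 18 dpp (reported 16). Called transcripts numbered 11 at a change of 10 points in place of 20 (reported 3) and 3 to 5 with 1 mouse left out, the 5 without mouse 3 of 10 dpp or mouse 2 of 16 dpp. Among the 26 genes given in full, 22 kept their direction and side of the threshold under all 36 settings. Under median-of-ratios scaling Eif1 went to 0.03 and Eif3j2 to 0.01, and Eif1 was not called without mouse 2 of 8 dpp (-0.13, limma adjusted p = 0.0799). Eif4e3 went to -0.18 with mice 1 to 3, to -0.09 with the replicate block and to -0.06 without mouse 5 of 18 dpp, and ran up to 0.15 with another mouse left out. Eif3j1 lost its call at -0.06, -0.20 and -0.15 (median-of-ratios scaling, mice 1 to 3, without mouse 1 of 8 dpp), and Eif3j2 gained one at -0.28 and -0.23 (mice 1 to 3, without mouse 5 of 18 dpp). The cause of these shifts was not tested.

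Mice of different ages share numbers but are different animals. Deviations from the age means correlated over 0.1 in 16 of 65 same-numbered pairs (-0.422 to 0.404, median 0.0198, against -0.00662 for other pairs), so the numbers did not pair the samples. With the replicate block 48 genes differed among the ages, 17 were higher and 28 lower from 8 to 18 dpp, and 3 transcripts were called. The depth is unknown, so it could not be said how far counting error limits genes of a few TPM such as Eif4e3, Eif4ebp3 and Eif4e1b.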
